A study of Rattus norvegicus with 3 samples.

Results

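Matrix metalloproteinases (MMPs), ADAM and ADAMTS proteases, ADAMTS-like proteins (ADAMTSL) and tissue inhibitors of metalloproteinases (TIMPs) were followed in rat spinal cord after contusion. The members are all entries of the deposited gene table whose symbol begins with MMP, TIMP, ADAM or ADAMTS and a number, or with ADAMTSL, which gave 26 genes of 12771 entries. These are 9 MMPs, 6 ADAMs, 4 ADAMTS proteases, 3 ADAMTSL proteins and 4 TIMPs. The rats were female Sprague Dawley animals, 3 months old. The No-SCI group had a laminectomy at T9 alone, and the SCI group had the same laminectomy followed by a moderate to severe contusion. Cord just rostral to the lesion, at T8, was taken 24 h later and digested in the cold with a bacterial protease. The cells were pelleted, and the RNA of the supernatant, a fraction the study prepared to enrich for axons, was sequenced as strand-specific libraries depleted of ribosomal RNA. By the labels, 2 libraries belong to No-SCI and 1 to SCI, although the methods of the study speak of 2 animals for either group.

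Each gene has a single FPKM value in each group (fragments scaled to transcript length and sequencing depth, so that levels of different genes can be set side by side). All FPKM values below are the authors' group values. They come without read counts or values of the separate libraries, so no spread between animals and no test of a difference could be computed. Differences are therefore given as a fold and as a log2 ratio of SCI to No-SCI, and a gene is called higher or lower only when the ratio is at least 2-fold. With 1 SCI library in the labels, the injury and that library cannot be told apart. In RNA from a whole tissue fraction, fewer cells of a type and less RNA per cell cannot be told apart either.

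The MMPs are zinc proteases, secreted or anchored in the membrane, that cleave collagens, proteoglycans and other proteins of the extracellular matrix. ADAMs are membrane proteins. Those with an active protease domain shed the outer part of growth factors, cytokines and adhesion molecules, while some members have lost the activity and act in adhesion. ADAMTS proteases are secreted and cut proteoglycans and procollagens, and ADAMTSL proteins share their outer domains without a protease domain. TIMPs bind the active site of these enzymes and block it. In the injured spinal cord the families are known for opening the blood-spinal cord barrier, for remodelling the scar and for releasing signals from cell surfaces.

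The RefSeq annotation of the rat holds 81 genes of these families, of which 26 have an entry under their symbol and none has one under a synonym. Each of the 4 TIMPs has an entry, as do 9 of 23 MMPs, 6 of 30 ADAMs, 4 of 19 ADAMTS genes and 3 of 5 ADAMTSL genes. MMP9, a gelatinase, the collagenases MMP1, MMP8 and MMP13, the macrophage elastase MMP12, and the neuronal ADAM22 and ADAM23 have no entry in the table analysed here, so nothing can be said of their levels. The gene cluster around MMP3 holds 10 MMP genes in RefSeq order, and 2 of them, MMP3 and MMP10, have an entry.

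Sequences are shown for MMP3 and MMP10, which belong to the same gene cluster, with MMP1 between them, and were both lower after injury, and for TIMP1, the gene with the highest level in both groups. They are stretches of RefSeq promoters on the GRCr8 assembly, written 5′ to 3′ on the strand of the gene. For MMP3 (chr8:12925121-12925260, plus strand) and MMP10 (chr8:12974547-12974686, plus strand) they run from 160 to 21 bases before the transcript start. For TIMP1 (chrX:3771205-3771234, minus strand) 30 bases are shown, from 112 to 83 before the start, because RefSeq also lists a transcript that begins further upstream. Capitals mark the TATA box TATAAA, the AP-1 motif TGANTCA and its variant TGAGTAA, and in TIMP1 also the ETS core AGGAAG.
MMP3: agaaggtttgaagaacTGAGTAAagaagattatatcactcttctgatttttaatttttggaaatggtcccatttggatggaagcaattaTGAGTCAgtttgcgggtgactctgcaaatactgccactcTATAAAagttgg
MMP10: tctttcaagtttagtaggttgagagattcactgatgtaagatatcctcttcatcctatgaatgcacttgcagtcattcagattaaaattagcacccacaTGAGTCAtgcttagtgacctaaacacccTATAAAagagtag
TIMP1: tggaTGAGTAAtgcgtccAGGAAGcctgga

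The motifs were searched on both strands in the 250 bases before the start of 33469 RefSeq promoters, and 19 of the 26 members have a promoter there. MMP3 and MMP10 share the layout of an AP-1 motif beginning 71 and 61 bases before the start and a TATA box beginning 32 and 33 bases before it. They are the 2 members with TGANTCA, which 6.34% of all promoters hold, and TATAAA, held by 12.9% of all promoters, is found in 5 members. The variant TGAGTAA, held by 2.38% of all promoters, is found in 2 members, MMP3 and TIMP1. AGGAAG, with 29.5% of all promoters and 7 members, and the SP1 box GGGCGG, with 30.5% and 14 members, are common. No AP-1 match can also be a match of its variant, since their letters differ. A match of letters is a description and not a bound site, and the motifs were chosen after the sequences and the values were seen. Promoters of ADAM9, ADAM11, ADAMTS5, MMP2, MMP14, MMP16 and MMP19 were not used here.

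After SCI the stromelysins MMP3 and MMP10, the LGI-binding protein ADAM11, the membrane-type protease MMP16 and the inhibitor TIMP4 were at least 2-fold lower, and the inhibitors TIMP1 and TIMP3 and the protease MMP23 were at least 2-fold higher. That is 3 members higher and 5 lower of 26. Over all 12771 entries 7.96% were at least 2-fold higher and 12.1% at least 2-fold lower, and the members' shares, 11.5% and 19.2%, rest on these 8 genes. With the median of all entries centred at 0 the shares over all entries become 9.55% and 9.59%, and the members' counts 4 higher and 5 lower, TIMP2 being the one added. The other 18 members lay within 2-fold. The members' median log2 ratio was −0.26, beside −0.12 over all entries. Of the members past 2-fold, TIMP3 with 2.18-fold higher and TIMP4 with 2.46-fold lower lay nearest to the limit, and of those short of it TIMP2 with 1.91-fold higher and ADAM9 with 1.91-fold lower lay nearest.

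**Figure D1:**
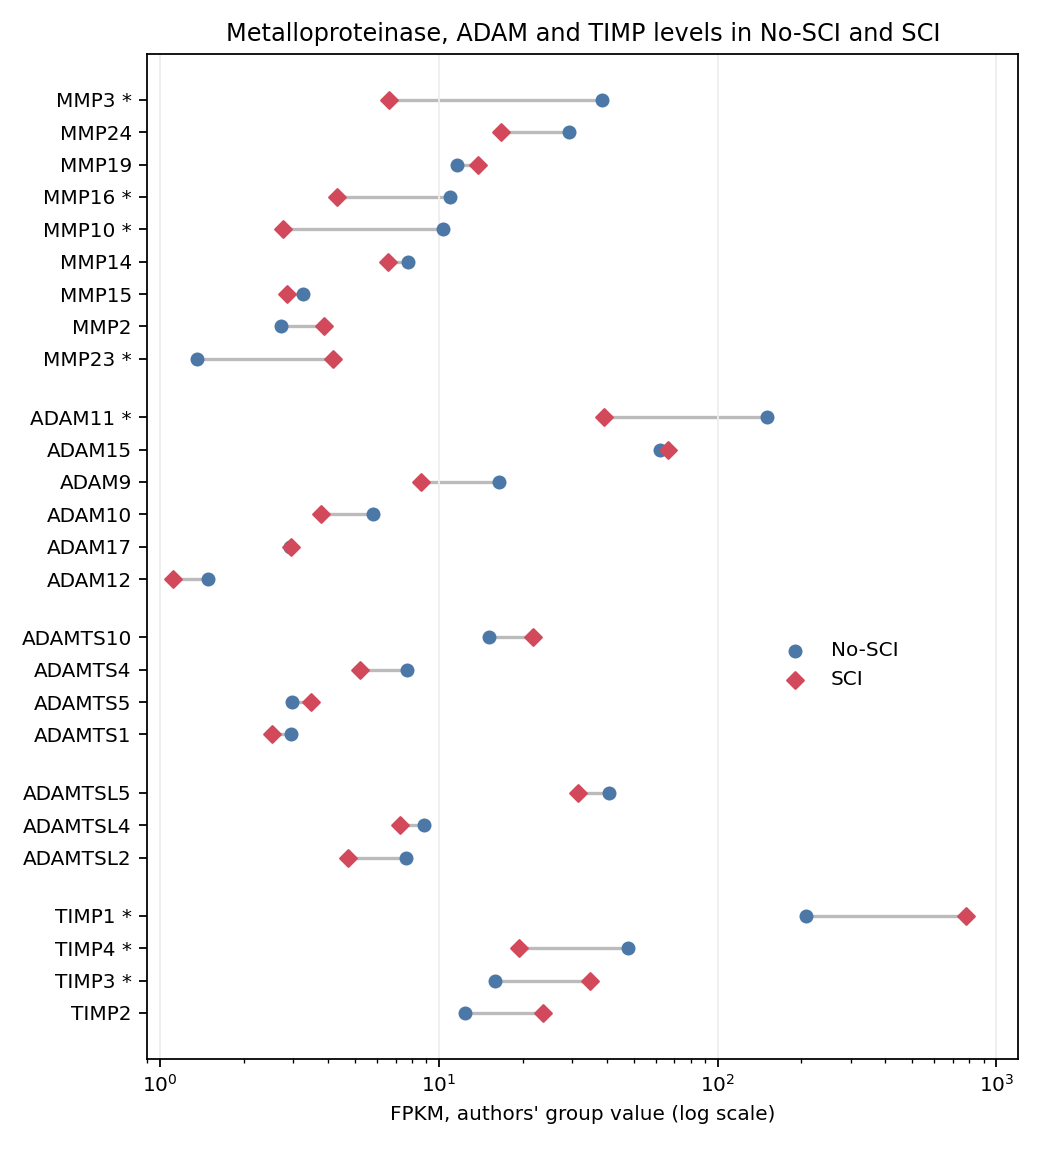
Levels of the 26 members, in the authors' FPKM on a log axis, with a blue circle for No-SCI, a red diamond for SCI and a line joining the group values of each gene. Genes are ordered by No-SCI level within the MMP, ADAM, ADAMTS, ADAMTSL and TIMP families, and an asterisk marks a difference of at least 2-fold. TIMP1 lies furthest right in both groups, at 208 and 780.2 FPKM, and the longest line among the proteases is that of MMP3, from 38.5 to 6.65 FPKM.

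The stromelysins MMP3 and MMP10 had the lowest ratios of SCI to No-SCI among the 9 MMPs. Stromelysins cleave proteoglycans, laminin and fibronectin and activate other pro-MMPs. MMP3 was the most abundant MMP in No-SCI with 38.5 FPKM and stood at 6.65 FPKM after SCI. That is 5.79-fold lower, a log2 ratio of −2.53, and MMP3 ranked the first of the 9 MMPs in No-SCI and the third in SCI. Of all 12771 entries 54 had a log2 ratio as low or lower, which puts MMP3 at the 0.419th percentile. MMP10 stood at 10.4 FPKM in No-SCI and 2.75 FPKM in SCI, 3.77-fold lower with a log2 ratio of −1.91, at percentile 1.49. Summed, the pair had 48.9 and 9.40 FPKM, 5.20-fold lower, while the other 7 MMPs summed to 66.9 and 52.3 FPKM, 1.28-fold lower. Both genes are among the members whose promoters are shown above with an AP-1 motif and a TATA box.

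The membrane-type MMPs act at the cell surface. The 4 with an entry had log2 ratios below 0, of which 1 was past 2-fold, with a median log2 ratio of −0.52 and a sum of 51.2 FPKM against 30.5 FPKM. MMP16 stood at 10.9 FPKM in No-SCI and 4.32 FPKM in SCI, 2.53-fold lower, with a log2 ratio of −1.34 at percentile 5.62. MMP24, a nervous system enzyme that can cleave N-cadherin and the amyloid precursor protein, had 29.3 and 16.7 FPKM, a log2 ratio of −0.81. MMP14, the main activator of pro-MMP2, had 7.75 and 6.60 FPKM, a log2 ratio of −0.23 that lies at percentile 43.2 of all entries. MMP15 had 3.25 and 2.85 FPKM, a log2 ratio of −0.19. MMP14 and MMP15 thus lay close to the median ratio of the table, −0.12.

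MMP2, MMP19 and MMP23 had higher values in SCI. MMP2, a gelatinase that digests denatured collagen and basement membrane, had 2.72 FPKM in No-SCI and 3.86 FPKM in SCI, 1.42-fold higher with a log2 ratio of 0.50 at percentile 80.4. MMP19, a secreted protease of basement membrane proteins, had 11.6 and 13.8 FPKM, a log2 ratio of 0.25. Neither reached 2-fold. MMP23, an MMP that is held in the membrane by its amino-terminal end, had 1.36 and 4.19 FPKM, 3.09-fold higher with a log2 ratio of 1.63 at percentile 97.1. Its No-SCI value was the lowest MMP value and lay near 1, the lowest value anywhere in the table. Values of 1 to under 2 carried 7 digits in 84.7% of No-SCI entries, against 24.7% for values of 2 to under 10, a pattern that a constant of 1 added to each value would give. With 1 subtracted from both values the log2 ratio of MMP23 is 3.16, so its size is uncertain. The subtraction cannot change the direction and does not show how certain that is.

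Among the ADAMs the difference lay in ADAM11. ADAM11 has no protease activity and binds LGI proteins, secreted ligands of synapses and axons, and it is known for placing potassium channels at inhibitory nerve terminals. It was the second most abundant member in No-SCI with 150.0 FPKM and the third in SCI with 39.1 FPKM. That is 3.84-fold lower, a log2 ratio of −1.94 at percentile 1.38. The other 5 ADAMs, all of them proteases that shed surface proteins, summed to 89.0 FPKM in No-SCI and 83.0 FPKM in SCI, 1.07-fold lower.

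Within the ADAM sheddases the log2 ratios ran from −0.93 to 0.10, and none was past 2-fold. ADAM10, which cuts Notch and acts as an alpha-secretase on the amyloid precursor protein, had 5.81 and 3.79 FPKM, 1.53-fold lower with a log2 ratio of −0.62 at percentile 24.8. ADAM17, which releases tumour necrosis factor, had 2.93 and 2.95 FPKM, a log2 ratio of 0.01 at percentile 56.9. The pair is often named together as the main sheddases. Beside the median log2 ratio of all entries, −0.12, that of ADAM10 lay below and that of ADAM17 close to it. ADAM9, a sheddase of growth factor precursors, had 16.4 and 8.63 FPKM, 1.91-fold lower, and with 1 subtracted from both values its log2 ratio of −0.93 becomes −1.02, past 2-fold. ADAM15, an ADAM of cell adhesion, was the most abundant sheddase in both groups with 62.3 and 66.6 FPKM. ADAM12, known from muscle and fibroblasts, had 1.49 and 1.11 FPKM, values so near the lowest of the table that the log2 ratio of −0.42 becomes −2.11 with 1 subtracted.

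The ADAMTS proteases and the ADAMTSL proteins had no member past 2-fold. The proteoglycanases ADAMTS1, ADAMTS4 and ADAMTS5, which cut aggrecan, brevican and versican, summed to 13.6 FPKM in No-SCI and 11.2 FPKM in SCI. ADAMTS1 had 2.95 and 2.53 FPKM, 1.17-fold lower with a log2 ratio of −0.22 at percentile 44.0. ADAMTS4 had 7.71 and 5.19 FPKM, 1.49-fold lower with a log2 ratio of −0.57 at percentile 26.9. ADAMTS5 had 2.96 and 3.48 FPKM, 1.18-fold higher with a log2 ratio of 0.23 at percentile 68.5. The directions among the proteoglycanases were therefore mixed. ADAMTS10, which binds fibrillin microfibrils, was the most abundant ADAMTS gene in both groups and had 15.1 and 21.7 FPKM, a log2 ratio of 0.52. The ADAMTSL proteins, which are also matrix proteins around fibrillin, had 3 of 3 values lower in SCI, with log2 ratios from −0.69 for ADAMTSL2 to −0.29 for ADAMTSL4. ADAMTSL5 was the most abundant of them with 40.7 and 31.6 FPKM.

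The inhibitors split. TIMP1, TIMP2 and TIMP3 had higher values after SCI and TIMP4 a lower one. TIMP1, a secreted inhibitor of most soluble MMPs that is induced by inflammation in many tissues, had 208 FPKM in No-SCI and 780.2 FPKM in SCI. That is 3.75-fold higher, a log2 ratio of 1.91 at percentile 98.1, and its level lay at percentile 92.3 of all entries in No-SCI and 98.3 in SCI. TIMP3, which is bound to the matrix and also blocks ADAM17 and the ADAMTS proteoglycanases, had 15.9 and 34.7 FPKM, 2.18-fold higher with a log2 ratio of 1.12 at percentile 93.5. TIMP2, which blocks MMPs and takes part in the activation of pro-MMP2 on MMP14, had 12.4 and 23.6 FPKM, 1.91-fold higher with a log2 ratio of 0.93 at percentile 91.2. It passes 2-fold when the ratios are centred on the median of all entries, with 1.05. TIMP4, the inhibitor with the narrowest tissue range, brain included, went the other way, with 47.8 and 19.4 FPKM. It was 2.46-fold lower, a log2 ratio of −1.30 at percentile 6.30, and it ranked the second of the TIMPs in No-SCI and the last in SCI.

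**Figure D2:**
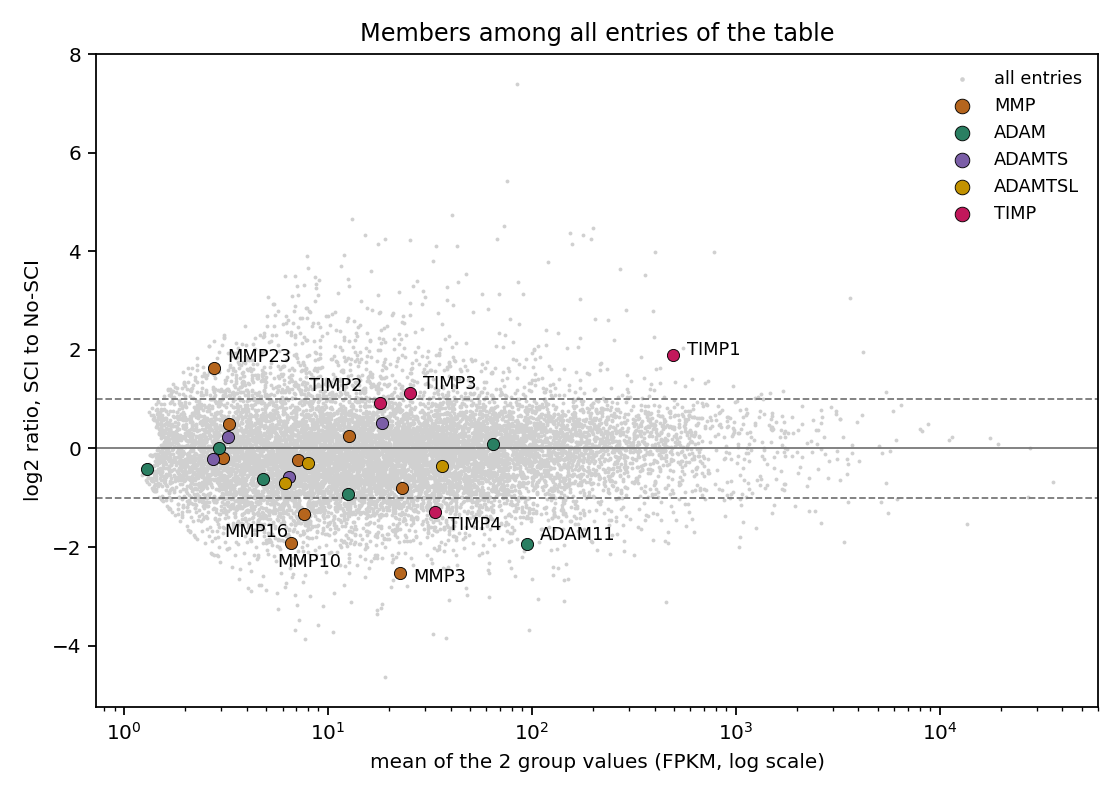
Each grey point is 1 of the 12771 entries, placed by the mean of the No-SCI and SCI values (FPKM, log axis) and by the log2 ratio, SCI over No-SCI. Coloured points are the 26 members by family, and dashed lines mark 2-fold. TIMP1 lies at a log2 ratio of 1.91, at percentile 98.5 among the 1277 entries of similar level, MMP3 at −2.53 is the lowest member, and most other members lie between the dashed lines.

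Set side by side by family, the sums of FPKM lay in different directions. The MMPs summed to 116 FPKM in No-SCI and 61.7 FPKM in SCI, 1.88-fold lower, with a median log2 ratio of −0.23 over 9 genes. For the ADAMs the sums were 239 and 122 FPKM, 1.96-fold lower, with a median of −0.52 over 6 genes. The TIMPs had 284 and 858 FPKM, 3.02-fold higher, with a median of 1.03 over 4 genes. These sums rest on a few genes: without TIMP1 the TIMP sum was 76.1 and 77.8 FPKM, and without MMP3 and MMP10 the MMP sum was 66.9 and 52.3 FPKM. The ADAMTS genes had 28.7 and 32.9 FPKM with a median near 0, at 0.0063, whose sign depends on the processing. The ADAMTSL genes had 57.1 and 43.5 FPKM with a median of −0.37. TIMP1 alone made up 28.7% of the summed level of all 26 members in No-SCI and 69.8% in SCI, while ADAM11 made up 20.7% and 3.49%.

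**Figure D3:**
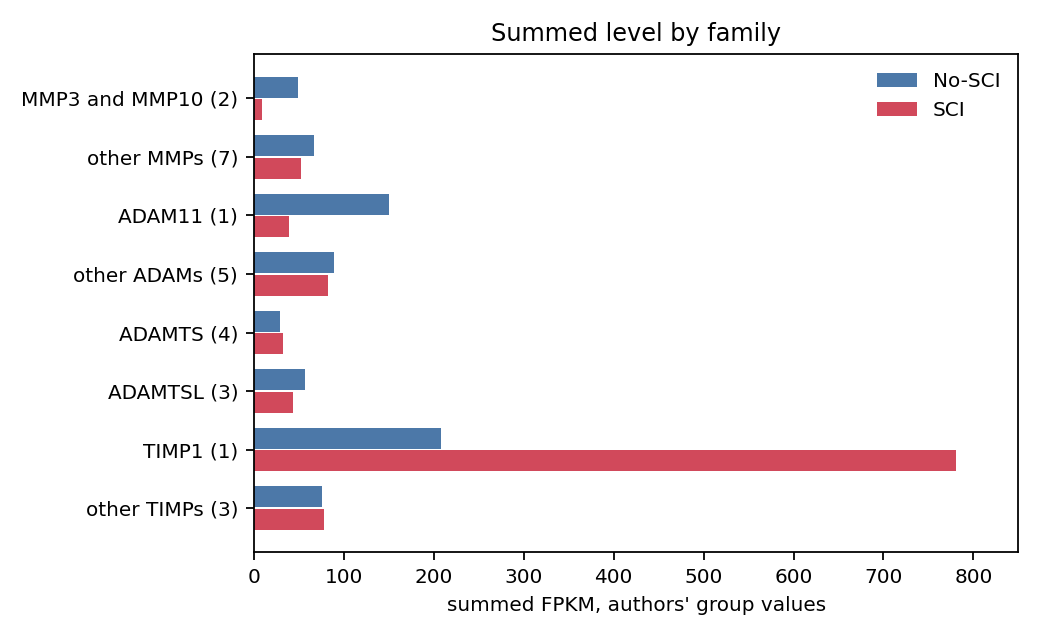
Bars give the summed FPKM of No-SCI (blue) and SCI (red) for each family, with MMP3 and MMP10, ADAM11 and TIMP1 drawn apart from the rest of their families and the number of genes in brackets. There is no error bar because each bar rests on 1 group value per gene. The 3 sets drawn apart differ by at least 3.75-fold between the groups, and the other sets by at most 1.31-fold. They were drawn apart with their values known, so this contrast follows from the choice. A small difference of a sum can also hold genes of opposite direction. The other TIMPs include TIMP3, 2.18-fold higher, and TIMP4, 2.46-fold lower. The other MMPs include MMP23, 3.09-fold higher, and MMP16, 2.53-fold lower.

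Ratios of an inhibitor to its target were computed from the same values, as relative levels of RNA and not of protein. TIMP2 to MMP14 stood at 1.60 without and 3.58 with injury, and TIMP2 to MMP2 at 4.55 and 6.12. TIMP3 to ADAM17 was 5.45 and 11.8, 2.17-fold apart, with nearly the same ADAM17 value in both groups. The ratio of the summed TIMPs to the summed MMPs was 2.46 and 13.9, a 5.66-fold difference. Without TIMP1 it was 0.657 and 1.26, a 1.92-fold difference, so the size of the shift turns on TIMP1. Without MMP3 it was 3.68 and 15.6. A ratio of TIMP1 to MMP9 could not be formed because MMP9 has no entry in the table analysed here.

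Genes that activate, carry or otherwise limit these enzymes were taken from lists by role. Their counts stand beside 7.96% of all entries at least 2-fold higher and 12.1% at least 2-fold lower. Of 16 activators and trafficking partners 14 had an entry. At least 2-fold higher were 2 of them (14.3%) and none was lower, and the median log2 ratio was −0.08. The 2 were TSPAN5, a tetraspanin that escorts ADAM10, with 6.59 and 14.5 FPKM, and PLAUR, the receptor of the plasminogen activator urokinase, with 4.70 and 10.98 FPKM. The most abundant was BSG, an inducer of MMPs, with 164 and 243 FPKM. Of the other inhibitors and clearance genes, 9 of 12 had an entry, with a median log2 ratio of −0.21. A2M, which traps proteases of every class, had 24.3 and 51.4 FPKM, 2.12-fold higher. CST3, an inhibitor of cysteine proteases and the most abundant gene of this list, had 2346 and 1795 FPKM. Within the SPOCK proteoglycans SPOCK2 had 5.11 and 10.96 FPKM and SPOCK3 had 98.2 and 22.8 FPKM, so that the same family held values past 2-fold in both directions. The procollagen C-proteinase BMP1 (3.92 and 7.90 FPKM) and its enhancers PCOLCE (3.20 and 15.5 FPKM) and PCOLCE2 (1.82 and 10.6 FPKM) were higher in 3 of 3 cases, of 8 genes in that list. BMP1 lay at the limit, 2.01-fold higher, and with a pseudocount of 1 the count past 2-fold was 2.

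Substrates were compared in the same way, beside 7.96% of all entries higher and 12.1% lower. Of 20 matrix substrates 13 had an entry, 5 at least 2-fold higher (38.5%) and 2 lower (15.4%). Those higher were the fibrillar collagen chains COL1A1, COL1A2 and COL3A1, the small proteoglycan DCN and fibrillin 1, FBN1, and DCN had the largest difference with 15.1 and 156 FPKM. Those lower were BCAN and NCAN, brain lecticans that ADAMTS proteases cut, with 212 and 82.1 FPKM for BCAN and 6.85 and 2.74 FPKM for NCAN. BCAN also had a smaller entry with a mean of 54.7 FPKM and a log2 ratio of −0.83, short of 2-fold. COL1A1, COL1A2 and COL3A1 had low No-SCI values of 1.87, 2.12 and 2.32 FPKM. Among matrix substrates with a mean of at least 5 FPKM, 3 were higher and 1 was lower. Among 18 of 25 substrates of ADAM sheddases, 2 were at least 2-fold higher (11.1%) and 5 lower (27.8%). Their median log2 ratio was −0.40 and their sum 1515 and 833 FPKM. The 2 higher, EFNA2 and EFNB1, had low No-SCI values of 1.57 and 1.92 FPKM. With a mean of at least 5 FPKM the count of higher genes was 0. NRG1, a growth factor of glia and muscle, had 18.9 and 5.63 FPKM. The prion protein gene PRNP had 354 and 176 FPKM, 2.01-fold lower, and with the ratios centred on the median of all entries the lower count was 4. APP, the amyloid precursor protein and the most abundant of this list, had 512 and 262 FPKM, just short of 2-fold.

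The list of ligands and partners of the LGI-binding ADAMs had 12 of 14 genes with an entry, with a median log2 ratio of −1.54. At least 2-fold lower were 8 of them (66.7%, beside 12.1% of all entries), and none was higher. The remaining 4 also had lower values in SCI, and the summed level was 337 and 108 FPKM. LGI4, the ligand needed for myelination of peripheral nerve, was the most abundant at 171 FPKM in No-SCI and 46.2 FPKM in SCI, a log2 ratio of −1.89 beside the −1.94 of ADAM11. LGI3 had 12.7 and 2.60 FPKM, and the scaffold gene DLG2 had 42.2 and 9.06 FPKM. The axonal contact proteins CNTN2 and CNTNAP1 and the potassium channel subunits KCNA2 and KCNAB1 also lay past 2-fold. No test of the list was possible with 1 value per group.

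**Figure D4:**
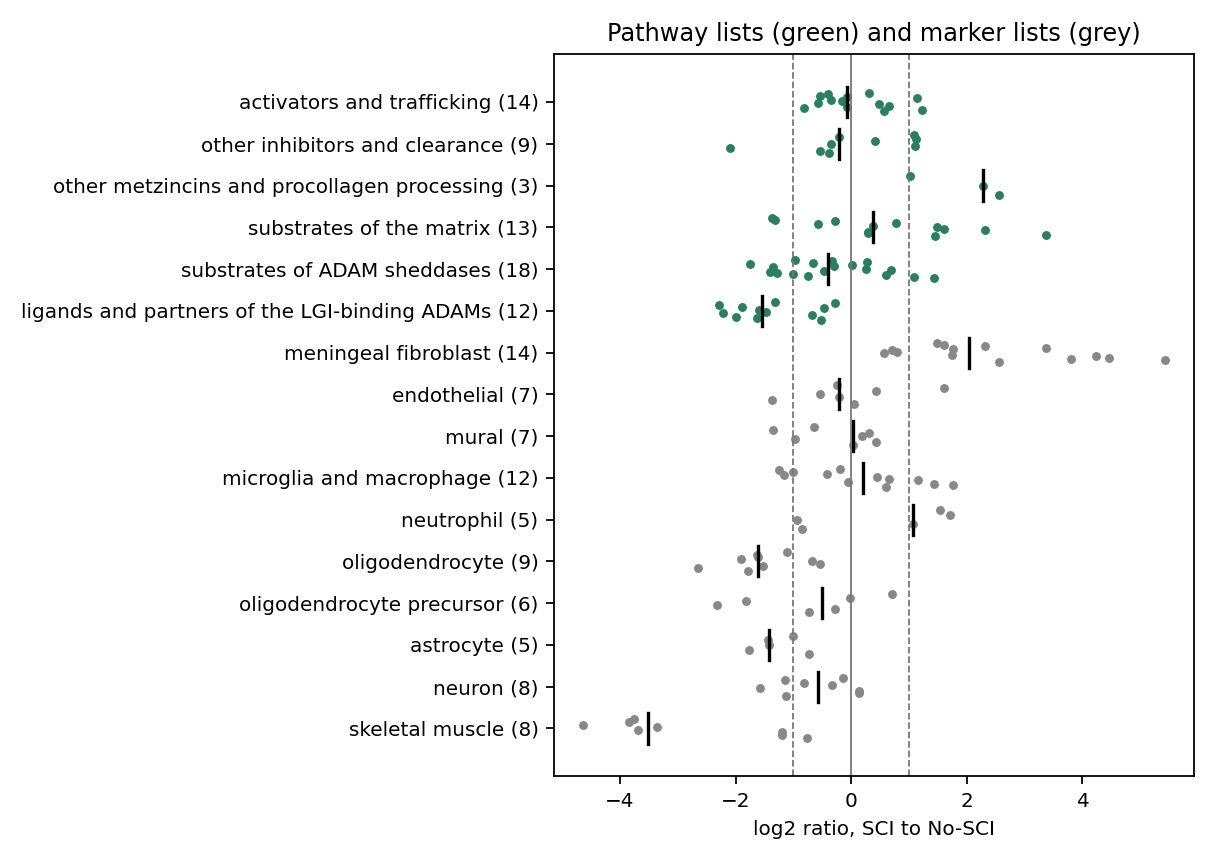
Log2 ratios of SCI to No-SCI for the genes of 6 pathway lists (green) and 10 cell type marker lists (grey), with the number of genes that have an entry in brackets. Each point is a gene, the black bar is the median of the list, and dashed lines mark 2-fold. The 12 LGI ligands and partners all lie left of 0 with a median of −1.54, the 14 meningeal fibroblast markers all lie right of 0 with a median of 2.03, and the activators are centred near 0.

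Markers of cell types differed between the groups along with the members. Of all entries, 7.96% were at least 2-fold higher and 12.1% at least 2-fold lower. The meningeal fibroblast list had 14 of 15 genes with an entry, 11 at least 2-fold higher and none lower, and summed to 104 FPKM in No-SCI and 1042 FPKM in SCI. COL1A1, COL1A2, COL3A1 and DCN belong to this list and to the matrix substrates. Among neutrophil markers 5 of 9 had an entry, 3 of them at least 2-fold higher, and the sum was 104 and 174 FPKM, with MPO, ELANE, CAMP and NGP without an entry. The other 2 were lower in SCI, short of 2-fold, LCN2 with 39.4 and 21.8 FPKM and CSF3R with 17.1 and 8.97 FPKM. Of the 3 higher, CXCR2 had a No-SCI value of 1.02 FPKM, near the lowest of all entries. Microglia and macrophage markers went both ways, with 3 of 12 higher and 3 lower and a sum of 849 and 965 FPKM. These differences stood beside the higher TIMP1, TIMP3 and MMP23, and their part in that result was not tested.

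Among neural and muscle markers the values past 2-fold were lower in SCI. The counts below stand beside the same shares of all entries, 7.96% higher and 12.1% lower. Oligodendrocyte markers had 7 of 9 at least 2-fold lower, MBP having no entry. They summed to 52341 and 29979 FPKM, of which MOBP, short of 2-fold, held 44200 and 27648 FPKM. Astrocyte markers summed to 330 and 162 FPKM with 4 of 5 lower, GFAP, AQP4, SLC1A3, S100B and ALDOC having no entry. Neuron markers, SNAP25 and NEFM without an entry, had 3 of 8 lower and a median log2 ratio of −0.57. Their sums of 1770 and 1650.0 FPKM rest mostly on GAP43, with 1275 and 1406 FPKM. Skeletal muscle markers, which the cord itself should lack, had 7 of 8 at least 2-fold lower and summed to 387 FPKM in No-SCI and 31.5 FPKM in SCI. The 7 include MYH1 and MYH2, which held identical values. The lower MMP3, MMP10, ADAM11, MMP16 and TIMP4 stood beside these lists, whose part in those results was not tested. Mural markers had 1 of 7 lower and summed to 431 and 551 FPKM, of which TAGLN alone held 383 and 517 FPKM. Oligodendrocyte precursor markers had 2 of 6 lower and summed to 57.9 and 41.1 FPKM. Endothelial markers had 1 of 7 higher and 1 lower, with sums of 40.4 and 41.7 FPKM.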

How the data were processed

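RNA of the supernatant of protease-digested spinal cord was measured in a No-SCI and an SCI group. Per the labels and the study's methods, reads were downsampled to the smallest library, aligned with STAR 2.5.4b to rn6 with the Ensembl annotation, and quantified with Cuffdiff 1.3.0 under upper quartile normalization. The authors deposited FPKM as 1 Cuffdiff estimate for each group. The lowest value is 1, and several entries may have been summed under a symbol. The table also holds the authors' own fold changes, p-values and q-values, which were not used. The table gives no read counts, so no interval was computed.

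Log2 ratios of SCI to No-SCI were computed without a pseudocount in Python 3.11.15 with pandas 2.3.3 and numpy 2.4.6, and called at 2-fold. The calculation was run on simulated data with large planted shifts and little noise, which does not test the calls made here. Where a symbol had several entries, the one with the larger mean was kept for the lists. Full values were given for members past 2-fold and for the gelatinases, MMP14, TIMPs, ADAM10, ADAM17, LGI-binding ADAMs and ADAMTS1, ADAMTS4 and ADAMTS5, and other members more briefly. From the lists, genes past 2-fold or among the 3 most abundant could be named, and 1 gene of the inhibitor list is not reported here. The members, groups and lists were chosen with earlier results of these data known. Percentiles are of the log2 ratio among all 12771 entries. Promoters are RefSeq GRCr8 and were used for letters and gene order, since the files' build differs. No protein sequence was used here, so the planned search for protein motifs was not made.

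Alternatives were a pseudocount of 1, subtraction of 1, centring, upper quartile and total scaling, leaving out entries with a mean under 5 FPKM, thresholds of 1.5-fold and 3-fold, and summing repeated symbols.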

Additional observations from a re-analysis of the deposited data

How the results depend on the processing

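Of the alternatives, only centring, upper quartile and total scaling could have changed the sign of a member's log2 ratio, and all 26 members kept theirs. The member nearest below 0 was MMP15 at −0.19, further from 0 than any of these shifts. A pseudocount of 1, subtraction of 1 and summing repeated symbols cannot change a member's sign. Neither can the filter on the mean, which left 18 members. The other 2 alternatives changed the threshold alone. The median ratio of all entries was −0.12, and centring, upper quartile and total scaling added 0.12, 0.10 and 0.05 on the log2 scale. The count of higher members was 3. It was 4 with centring, upper quartile scaling or a 1.5-fold threshold, where 9.55%, 9.35% and 16.9% of all entries were higher, and 2 with a 3-fold threshold or a mean of at least 5 FPKM, where 3.17% and 7.64% were. The count of lower members was 5, with 7 after subtracting 1, 9 at 1.5-fold and 3 at 3-fold, where 16.2%, 26.3% and 3.27% of all entries were lower. The 2 added by the subtraction were ADAM9 and ADAM12. With a mean of at least 5 FPKM, which leaves 18 members, the MMP median was −1.07 in place of −0.23. The ADAMTS median, 0.0063, was −0.0048 after subtracting 1 and −0.02 with the mean filter. The ADAM median, −0.52, was −0.90 after subtracting 1 and −0.93 with the mean filter. The TIMP median ranged from 0.98 to 1.14. Of 108 list counts, 14 moved by over 1.5 times. No paired analysis was possible because the table holds 1 value per group, and no replicate could be left out for the same reason. Without read counts the counting error of low genes such as MMP23 and ADAM12 is not known.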

Other observations

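Values from 10 to under 11 FPKM carried 7 digits in 79.8% of No-SCI entries and 81.8% of SCI entries, against 64.1% and 62.2% for values from 11 to under 20. The skeletal muscle genes MYH1 and MYH2 held identical values, 2.71 FPKM in No-SCI and 1.18 FPKM in SCI. Among the members no such pair of identical values was seen.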
